A study of Mus musculus with 17 samples.

Results

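The 8 genes described here encode transcription factors that build the pituitary gland and set the identity of its hormone-producing cells: Tbx19, Pax7, Pitx1, Lhx3, Lhx4, Hesx1, Sox2 and Sox9. They were taken by symbol from count tables that list 23284 genes, and each of the 8 had a row. RNA was sequenced from 17 mouse tumours, given in the labels as neuroendocrine tumours of the pituitary. Of these, 8 carried engineered alleles of Rb1, Trp53 and Crebbp (called Rb1/Trp53/Crebbp, tumours T1 to T8) and 9 carried those of Rb1 and Trp53 alone (Rb1/Trp53, tumours T1 to T9), so both groups share the Rb1 and Trp53 alleles and differ in Crebbp. Rb1 and Trp53 are tumour suppressor genes, and the product of Crebbp acetylates histones as a coactivator of transcription. The study asked which genes depend on Crebbp in such tumours. The sources used here give neither the driver of the deletion, nor the share of tumour cells it reached, nor the strain, sex or age of the mice. Nothing says that each tumour came from its own mouse, so p-values measure only the spread between these samples.

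Pituitary cells arise from Rathke's pouch, where Pitx1, Lhx3, Lhx4 and the repressor Hesx1 act early, before the hormone lineages separate. Tbx19 then commits cells to the lineages that express Pomc, the precursor of ACTH and of the melanocyte-stimulating hormones, and Pax7 opens chromatin at melanotroph genes, so that Tbx19 with Pax7 marks melanotrophs of the intermediate lobe and Tbx19 without Pax7 marks corticotrophs of the anterior lobe. Sox2 and Sox9 mark the stem cells of the gland, and Sox9 is also used by glia, by cartilage and by many epithelia.

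The libraries were read in the sets that their main hormone transcript defines. A library with more Pomc than Calca counts was called Pomc-high (10 libraries: Rb1/Trp53/Crebbp T5 to T8 and 6 of Rb1/Trp53, T2 and T5 to T9), and the others Calca-high (7 libraries: Rb1/Trp53/Crebbp T1 to T4 and Rb1/Trp53 T1, T3 and T4); Calca encodes calcitonin, the hormone of thyroid C cells. The gap was wide: Pomc stood at 93780 to 318200 counts per 1000000 (CPM, scaled by TMM) in Pomc-high and at 3.58 to 64.2 CPM in Calca-high libraries. The tissue label was checked against marker genes. The summed level of 8 genes of other anterior lobe cells, among them Gh and Prl, was 11.3 to 14280 CPM in the Pomc-high libraries and at most 0.552 CPM in the Calca-high ones, where Gh, Fshb and Gnrhr were at 0 in all 7. The foregut and C-cell factor Nkx2-1 was at most 14.4 CPM in Pomc-high and 188 to 331 CPM in Calca-high libraries, and Foxa2 at most 0.729 CPM in Pomc-high and 81.5 to 169 CPM in Calca-high libraries. Thus 7 of the 17 libraries lacked the defining markers of the tissue in their label, while the neuroendocrine gene Chga was high in both sets (3878 to 8157 CPM in Pomc-high, 3138 to 11070 CPM in Calca-high). Totals on genes were 8328297 to 28140755 counts, and 3 counts, used as the floor of detection, corresponded to 0.114 to 0.383 CPM. Whole-gene counts of Crebbp do not test for a deleted exon and so do not check the genotype labels.

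Per exon length, Tbx19 was the highest of the 8 genes in Pomc-high tumours, and it was nearly absent from Calca-high tumours. Its sequence just upstream is shown because it was the one member with a repeated LIM-homeodomain-type match. The 250 bases before the RefSeq start sites of 6 members (7 windows; GRCm38.p6, a later build than the mm9 of the counts) were searched on both strands for TAATCC (the letters read by PITX proteins), TAATTA (read by LIM-homeodomain proteins such as LHX3), TCACACC (a T-box core) and TATAAA. The capitals below mark the matches in Tbx19 (chr1:165160774-165161023, minus strand) and their absence in Sox2 (chr3:34649745-34649994, plus strand), each written 5′ to 3′ up to the base before the start:

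Tbx19: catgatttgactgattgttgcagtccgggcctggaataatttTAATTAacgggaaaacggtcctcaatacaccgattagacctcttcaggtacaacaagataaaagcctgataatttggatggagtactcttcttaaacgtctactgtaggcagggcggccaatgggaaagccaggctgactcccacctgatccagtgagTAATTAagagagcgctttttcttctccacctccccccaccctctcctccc

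Sox2: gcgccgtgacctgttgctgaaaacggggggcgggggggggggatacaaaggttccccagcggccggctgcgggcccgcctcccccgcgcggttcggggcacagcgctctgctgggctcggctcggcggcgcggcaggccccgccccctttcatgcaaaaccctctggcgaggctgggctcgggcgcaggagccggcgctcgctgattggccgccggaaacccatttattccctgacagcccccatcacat

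Tbx19 held TAATTA in 2 places, starting 208 and 50 bases before the start. Among 32851 mouse promoter windows of the same length, 4.84% held TAATTA at least once and 0.444% held 2 or more. Of the other windows, the upstream one of Lhx3 held TATAAA, which 12.4% of all windows hold, and the second of Lhx3 and those of Pax7, Sox2, Lhx4 and Hesx1 held none of the 4 motifs. The shares for TAATCC and TCACACC over all windows were 6.25% and 3.33%. GC content was 47.6% in the Tbx19 window and 72% in that of Sox2. These are matches of letters and say nothing about binding.

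**Figure D1:**
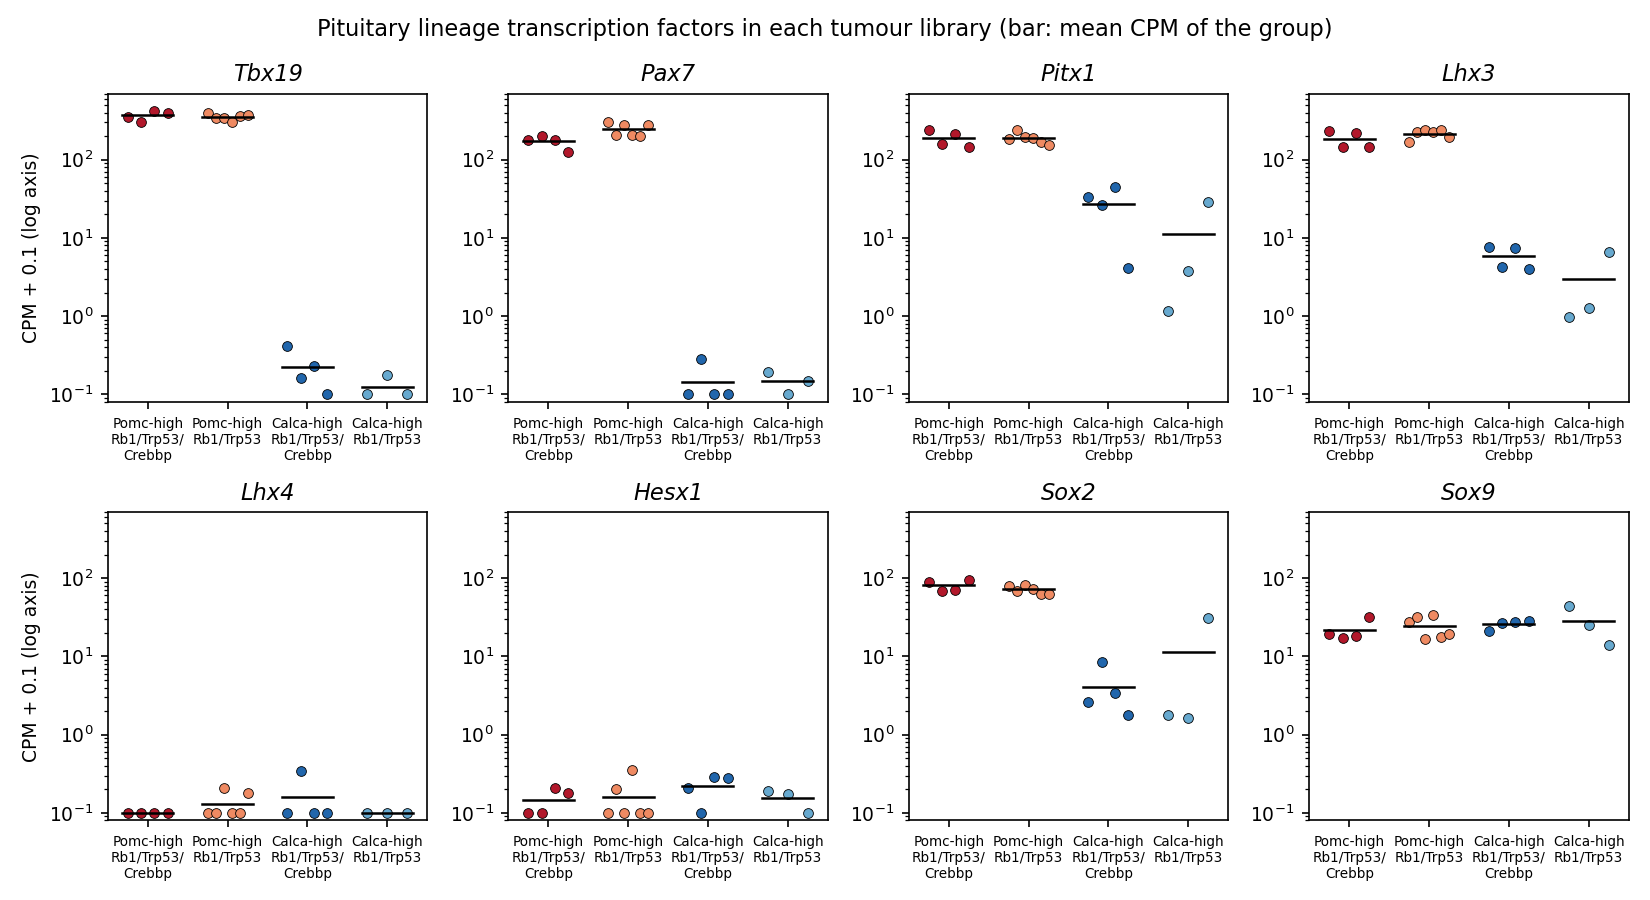
CPM + 0.1 on a log axis for the 8 factors, with 1 point per tumour library and a bar at the group mean, in Pomc-high and Calca-high libraries of each genotype. Tbx19, Pax7, Pitx1, Lhx3 and Sox2 stand higher in each Pomc-high library than in any Calca-high one, Sox9 overlaps, and Lhx4 and Hesx1 lie at 0.256 CPM or below throughout.

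Tbx19 ranged from 305 to 418 CPM in the Pomc-high libraries, with a median of 356 (n = 10), and from 0 to 0.316 CPM in the Calca-high ones, with a median of 0.0611 (n = 7). In counts, the Pomc-high libraries held 2400 to 6603 and the Calca-high ones 0 to 3 each, a sum of 8. Each Calca-high library was thus at or under the floor. The pooled level was 5674 times higher in Pomc-high (exact 95% interval of the ratio 2879 to 13140, which covers counting error only).

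Pax7 followed the same pattern. It stood at 125 to 298 CPM in Pomc-high libraries, with a median of 203, and at 0 to 0.183 CPM in Calca-high ones, where 4 of 7 had no count and all 7 together had 6. The pooled ratio was 4598 (2112 to 12530). Every Pomc-high library had both factors, so none had the Tbx19-positive, Pax7-negative profile.

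The pouch factors Pitx1 and Lhx3 were also higher in Pomc-high tumours, yet they did not vanish from the Calca-high ones. Pitx1, which activates Pomc together with Tbx19, was at 146 to 238 CPM in Pomc-high libraries (median 187) and at 1.05 to 44.7 CPM in Calca-high libraries (median 26.1), with 23 to 699 counts per library there. The mean level was 9.3 times higher in Pomc-high. Lhx3, a LIM-homeodomain factor needed for the pouch to grow into a gland, was at 143 to 241 CPM (median 221) in Pomc-high and at 0.870 to 7.59 CPM (median 4.10) in Calca-high libraries. The ranges of both genes were clear of each other between the sets, and the mean of Lhx3 was 45.4 times higher in Pomc-high.

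Lhx4, the close relative of Lhx3, and Hesx1, a repressor that is switched off as the gland differentiates, were near or below detection everywhere. Lhx4 had 2 counts in all 10 Pomc-high libraries together, and in the Calca-high set it had 4 counts in Rb1/Trp53/Crebbp T2 and none in the other 6. Hesx1 had 6 counts over the Pomc-high set and 11 over the Calca-high one, at most 3 in any library. Both genes were dropped by the filter on low counts, and no fold is given for them.

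The stem cell factors split. Sox2 stood at 63.2 to 95.5 CPM in Pomc-high libraries, with a median of 71.3, and at 1.52 to 30.9 CPM in Calca-high libraries, with a median of 2.53. Its mean was 10.6 times higher in Pomc-high, without overlap, and 23.8 times higher when Rb1/Trp53 T4, the highest Calca-high library, was left out. The long RNA Sox2ot, whose gene overlaps Sox2, was at 17.7 to 25.9 CPM in Pomc-high and at 0.366 to 1.83 CPM in Calca-high libraries; the sources used here do not give the strand setting of the counting, so reads of the pair may not be told apart. Sox9 was at 16.6 to 33.2 CPM (median 19.3) in Pomc-high and at 14.0 to 44.2 CPM (median 26.4) in Calca-high libraries. These ranges overlapped almost entirely, and the difference of mean log2 CPM was -0.18.

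In all, 5 of the 8 factors stood apart between the sets, meaning ranges that do not overlap and a difference of mean log2 CPM of at least 1, and all 5 were higher in Pomc-high. Of the 14338 genes that passed the filter, 14% stood apart: 7.37% were higher and 6.66% lower in Pomc-high. No test was made, since the sets were cut from counts of the same libraries, and Tbx19 and Pax7 passed the filter only through the Pomc-high libraries, so that they had to differ. The same 5 factors were apart and higher within each genotype, where 9.69% (Rb1/Trp53/Crebbp) and 11.9% (Rb1/Trp53) of genes were. Differences of mean log2 CPM within Rb1/Trp53/Crebbp and within Rb1/Trp53 were 10.56 and 11.09 for Tbx19, 9.94 and 10.37 for Pax7, 3.20 and 5.19 for Pitx1, 5.02 and 6.69 for Lhx3, and 4.55 and 3.97 for Sox2. With so few libraries, single Calca-high ones moved some of these values by over 1.5 times in fold. Without Rb1/Trp53 T4 the Rb1/Trp53 values were 6.44 for Pitx1, 7.54 for Lhx3 and 5.35 for Sox2, which turned the order of the genotypes for Sox2. The Rb1/Trp53 value of Pitx1 was 4.14 without T1, that of Sox2 was 3.31 without T1 and 3.24 without T3, and the Rb1/Trp53/Crebbp value of Pitx1 was 2.44 without T4. In bulk tumours, fewer cells of a type and less RNA per cell cannot be told apart.

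Levels can be compared between genes only per length. With CPM divided by the kilobases of merged exons in GENCODE M21 (GRCm38, not the annotation of the counting), Tbx19 led the Pomc-high libraries with a median of 133.8 CPM per kb (114.6 to 157.1). Lhx3 followed with 91.5 (59.3 to 99.8) and Pitx1 with 76.5 (59.5 to 97.1), and these neighbours overlapped with each other but not with Tbx19. Pax7 at 34.7 (21.3 to 50.9) and Sox2 at 34.6 (30.7 to 46.5) overlapped with each other and lay below Pitx1. Sox9 at 4.67 (4.02 to 8.03) lay below them, and Lhx4 (at most 0.0193) and Hesx1 (at most 0.205) were last, both at or under 2 counts per library. In Calca-high libraries the order was different: Pitx1 at 10.65 (0.430 to 18.2) and Sox9 at 6.39 (3.38 to 10.7) overlapped, and Lhx3 at 1.70 (0.360 to 3.15) and Sox2 at 1.23 (0.738 to 15.0 CPM per kb) had lower medians. Of these neighbours in the order only Sox9 and Lhx3 did not overlap. Hesx1, Tbx19, Lhx4 and Pax7 stood at 0 to 0.154 CPM per kb, below the other 4.

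The factors differed in how evenly they were expressed. Within Pomc-high libraries the SD of log2 CPM was 0.149 for Tbx19, 0.204 for Sox2, 0.249 for Pitx1, 0.288 for Lhx3, 0.375 for Pax7 and 0.409 for Sox9, beside a median of 0.247 over all 14338 genes. Within Calca-high libraries it was 2.03 for Pitx1, 1.56 for Sox2, 1.2 for Lhx3 and 0.496 for Sox9, beside a median of 0.297. The first 3 of these were thus far more uneven among Calca-high tumours than among Pomc-high ones, while Tbx19 was among the steadier genes of the Pomc-high set.

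Other factors of early head and pituitary patterning were looked up as a list of 17 genes, of which 11 passed the filter. Of these 11, 8 stood apart and higher in Pomc-high and 1 stood apart and lower, where 7.37% of all genes were higher and 6.66% lower. The median difference of log2 CPM was 4.98, against -0.000728 over all genes. Of those 8, 5 had too few counts to pass the filter within Calca-high libraries, Six3, Six6, Vax1 and Pax6 among them, and so had to differ. Six3, a homeobox gene of the anterior neural plate and the pouch, was at 141 to 301 CPM in Pomc-high and at 0 to 0.106 CPM in Calca-high libraries. Its relative Six6, which maintains pouch progenitors, was at 74.6 to 135.5 CPM in Pomc-high and at most 0.0502 CPM in Calca-high. Vax1, a ventral forebrain homeobox gene, was at 17.5 to 42.3 CPM in Pomc-high and at most 0.0639 CPM in Calca-high. Prrx1, a paired-related homeobox gene, was at 115 to 221 CPM in Pomc-high and at 1.725 to 6.07 CPM in Calca-high libraries. Pax6 and Eya1 were also among the higher ones, and the lower one was Tcf7l1. Otx2, a head patterning factor, was at most 0.574 CPM in Pomc-high and at most 0.0458 CPM in Calca-high libraries.

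Of 9 tested partner factors of the Pomc lineages (10 listed), 2 stood apart, both lower in Pomc-high (median difference -0.04). This count and those below stand beside 6.66% of all genes apart and lower and 7.37% apart and higher. Isl1, a LIM-homeodomain factor of many endocrine and neural cells, was at 0.516 to 7.94 CPM in Pomc-high and at 99.7 to 136 CPM in Calca-high libraries. Nr3c1, the glucocorticoid receptor, was at 14.6 to 49.9 CPM in Pomc-high and at 63.1 to 96.9 CPM in Calca-high. Egr1 and Nr4a3, immediate-early genes, differed by -2.41 and 2.27 on the log2 scale but their ranges overlapped. Of 9 listed factors of the other anterior lobe lineages, 4 passed the filter (Gata2, Esr1, Zbtb20 and Foxo1), and 0 of these 4 stood apart. The rest had too few counts and were not judged. Among them, Pou1f1, which specifies somatotrophs, lactotrophs and thyrotrophs, was at 0 to 4.69 CPM in Pomc-high and at most 0.0591 CPM in Calca-high libraries. Of 10 genes that carry out the work of corticotrophs and melanotrophs, 4 stood apart and higher in Pomc-high and 1 lower. The count includes Pomc, whose difference the definition of the sets fixed, and Avpr1b, which had too few counts to be tested within Calca-high libraries. Beside Pomc, the higher ones were Drd2, the dopamine receptor that restrains melanotrophs (184 to 565 CPM in Pomc-high, 0.504 to 3.06 CPM in Calca-high), the vasopressin receptor gene Avpr1b (1.95 to 20.8 CPM in Pomc-high, 0.201 to 0.417 CPM in Calca-high) and the splicing regulator Rbfox3 (45.3 to 99.7 CPM in Pomc-high, 9.88 to 14.4 CPM in Calca-high). The prohormone convertase gene Pcsk1 was lower (84.4 to 203 CPM in Pomc-high and 354 to 989 CPM in Calca-high).

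**Figure D2:**
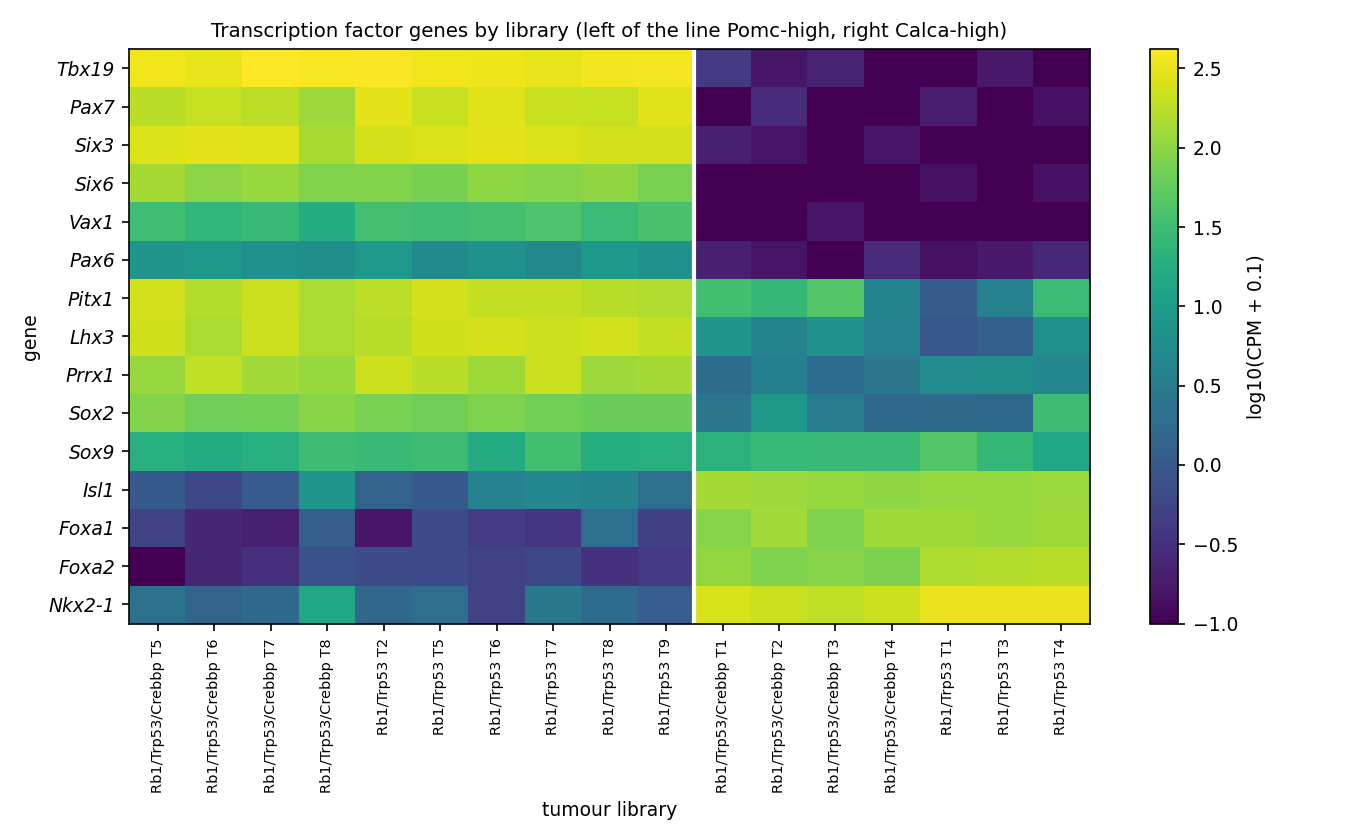
Log10 of CPM + 0.1 (colour) for 15 factor genes (rows) in the 17 libraries (columns; Pomc-high left of the white line, Calca-high right of it). The 9 rows besides the 6 filtered-in members were chosen after their values were seen; Six3, Six6 and Vax1 share the dark right side of Tbx19 and Pax7, and Rb1/Trp53 T4 stands out among Calca-high libraries in Sox2.

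The genes most like each factor over all 17 libraries were found by the root mean square (RMS) difference of log2 CPM, each gene centred on its mean, among the 11151 genes whose mean CPM reached 5. For Tbx19 they were Six3 (0.452), Pax7 (0.685) and Six6 (0.888), where the median over all genes was 5.33. For Pax7 they were Six3 (0.451), Six6 (0.64) and Tbx19 (0.685), with a median of 5.05. Pitx1 was nearest to Syt1 (0.582), a calcium sensor of vesicle release, then Sidt1 and Trim66, and Lhx3 to Olfm3 (0.518), then Tmem179 and Fam19a2. Over the 10 Pomc-high libraries alone, other genes were among the 3 nearest: Tmem69 (0.0716) and St3gal5 for Tbx19, Limch1 (0.116) and Igf1r for Pax7, Fbxw5 (0.109) and Gmppa for Pitx1, and H2-Ke6 (0.104) and Zfand2b for Lhx3. These are the smallest of 10865 differences per factor, whose medians were 0.251 for Tbx19, 0.405 for Pax7, 0.318 for Pitx1 and 0.344 for Lhx3. Among the members themselves, Pitx1 and Lhx3 were the closest pair in the Pomc-high set (0.209) and Pax7 and Sox9 the farthest (0.587). The points share libraries and their scaling, so these are descriptions. Tbx19, Pax7, Six3 and Six6 were each at or under the floor in every Calca-high library. Their nearness over all 17 libraries thus largely repeats the gap between the sets.

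Turning to the genotype, over all 17 libraries 0 of the 6 tested factors passed an adjusted p of 0.05 in edgeR's quasi-likelihood test (0 at an unadjusted p under 0.05, and 0 with DESeq2 or limma-voom), beside 3.86% of 14338 genes. Of those genes, 3126 had an unadjusted p under 0.05. Log2 fold changes of Rb1/Trp53/Crebbp over Rb1/Trp53 lay between -0.93 ± 1.55 SE for Pax7 and -0.11 ± 0.21 for Sox9. Except for Sox9, the errors were between 0.84 and 1.60, since each group mixes both sets. The genotype was therefore read within each set.

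Within the Pomc-high set, 0 of 6 tested factors passed in edgeR (8.42% of 14010 genes did). At an unadjusted p under 0.05 it was 1, Pax7, beside 3561 of the 14010 genes. DESeq2 called 1, also Pax7, while limma-voom called 0. Pax7 stood at 178, 201, 180 and 125 CPM in Rb1/Trp53/Crebbp T5 to T8 and at 202 to 298 CPM (median 243) in the 6 Rb1/Trp53 tumours. The ranges did not overlap, by a margin of about 1 CPM; 5.87% of genes had ranges that lay lower without overlap. The log2 fold change was -0.50 ± 0.15 SE (95% interval -0.82 to -0.17, adjusted p = 0.0603 with edgeR, 0.0186 with DESeq2). The lowest Pax7 value was that of Rb1/Trp53/Crebbp T8, a library with glial transcripts: its 12 pituicyte and astroglia genes summed to 1483 CPM and its 8 oligodendrocyte genes to 829.9 CPM, against 189 to 339 and 50.4 to 119 CPM in the other 9 libraries. Without that library the log2 fold change was -0.36 ± 0.14 (adjusted p = 0.133), and with any 1 library left out it lay between -0.59 and -0.36 (adjusted p from 0.0521 to 0.133).

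Summed levels of some marker lists also differed between the genotypes in this set. The 6 endothelial genes summed to 16.2 to 41.8 CPM in Rb1/Trp53/Crebbp and 43.1 to 69.3 CPM in Rb1/Trp53 tumours, with 2 of 6 lower. The 6 macrophage genes summed to 15.8 to 110 CPM in Rb1/Trp53/Crebbp and 55.0 to 153 CPM in Rb1/Trp53 tumours, again with 2 of 6 lower, where 5.26% of all genes were. The 8 lung epithelial genes summed to 44.3 to 54.7 CPM in Rb1/Trp53/Crebbp and 67.1 to 107 CPM in Rb1/Trp53 tumours, with 1 gene lower, Hopx. Most of that sum was Hopx (33.9 to 86.6 CPM in Pomc-high libraries), while Sftpc and Sftpb were at most 0.295 and 0.256 CPM. The sum thus does not show lung epithelium in this set. The 6 neuroendocrine genes, with Chga high in both sets, summed to 8455 to 10420 CPM in Rb1/Trp53/Crebbp and 11250 to 13980 CPM in Rb1/Trp53 tumours, with 1 gene lower. No gene of these 4 lists was at 0 in a whole group, and their part in the Pax7 values was not tested.

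The other factors of the Pomc-high set were as follows. Tbx19 was at 355, 305, 418 and 390 CPM in Rb1/Trp53/Crebbp T5 to T8 and at 306 to 397 CPM (median 351) in Rb1/Trp53 tumours, a log2 fold change of 0.08 ± 0.10 (95% interval -0.15 to 0.30, adjusted p = 0.685). The groups overlapped throughout, and the interval excludes a change of 1 log2 unit in either direction. Pitx1 was at 236, 159, 213 and 146 CPM in Rb1/Trp53/Crebbp and at 153 to 238 CPM (median 187) in Rb1/Trp53 tumours, with 0.02 ± 0.15 (-0.30 to 0.35, adjusted p = 0.95). Lhx3 was at 231, 147, 219 and 143 CPM in Rb1/Trp53/Crebbp and at 170 to 241 CPM (median 224) in Rb1/Trp53 tumours, with -0.20 ± 0.16 (-0.54 to 0.14, adjusted p = 0.455). In both Pitx1 and Lhx3, T5 and T7 were the high and T6 and T8 the low libraries of the Rb1/Trp53/Crebbp group. Sox2 was at 89.7, 69.0, 70.6 and 95.5 CPM in Rb1/Trp53/Crebbp and at 63.2 to 82.8 CPM (median 70.4) in Rb1/Trp53 tumours, with 0.21 ± 0.11 (-0.04 to 0.45, adjusted p = 0.279). Sox9 was at 19.2, 17.02, 18.4 and 31.4 CPM in Rb1/Trp53/Crebbp and at 16.6 to 33.2 CPM (median 23.5) in Rb1/Trp53 tumours, with -0.16 ± 0.24 (-0.68 to 0.36, adjusted p = 0.717). T8, the library with glial transcripts, was the highest of its group in Sox2 and Sox9. Without it the log2 fold changes were 0.13 ± 0.12 (adjusted p = 0.532) and -0.39 ± 0.22 (adjusted p = 0.297). The median log2 fold change of the 6 factors was -0.07, and that of all genes 0.01.

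**Figure D3:**
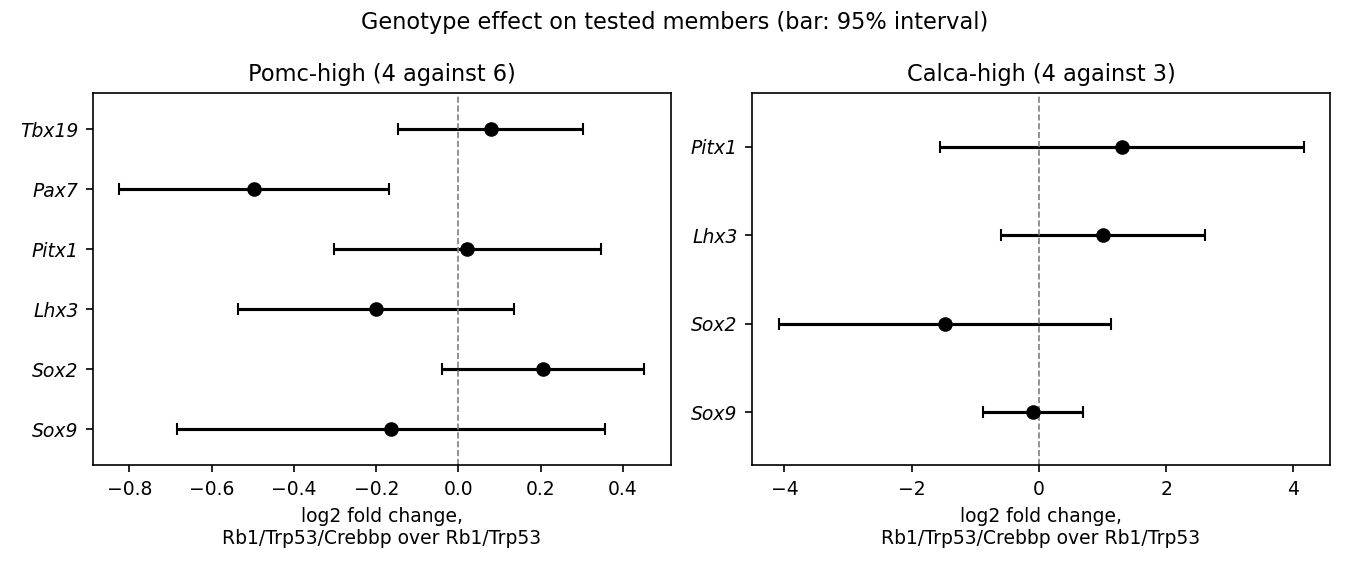
Log2 fold change of Rb1/Trp53/Crebbp over Rb1/Trp53 tumours with its 95% interval for each tested factor, in Pomc-high (left, 4 against 6 libraries) and Calca-high libraries (right, 4 against 3); the axes differ in scale. In Pomc-high only the interval of Pax7 lies clear of 0, and in Calca-high those of Pitx1 and Sox2 span several log2 units.

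Several genes that work beside the factors did fall with the Crebbp allele in the Pomc-high set. Of 10 effector genes, 3 fell and 0 rose, where 5.26% of all genes fell and 3.15% rose. Drd2 was at 365, 352, 313 and 184 CPM in Rb1/Trp53/Crebbp T5 to T8 and at 450 to 565 CPM in Rb1/Trp53 tumours (log2 fold change -0.72 ± 0.16, adjusted p = 0.0183). Pcsk2, the convertase that makes melanocyte-stimulating hormone, was at 4061, 5340, 4553 and 2566 CPM in Rb1/Trp53/Crebbp and at 5800 to 8220 CPM in Rb1/Trp53 tumours (-0.79 ± 0.19, adjusted p = 0.0216), and Pam, which amidates peptides, fell by 0.66 on the log2 scale (SE 0.10, adjusted p = 0.00229). None of these 3, which were named because they passed, overlapped between genotypes, and 5.87% of all tested genes lay lower without overlap. With 1 library left out, Pam kept its call throughout, while Drd2 lost it without Rb1/Trp53/Crebbp T7 (adjusted p = 0.0517) and Pcsk2 without Rb1/Trp53/Crebbp T5 (adjusted p = 0.0562). Of 11 patterning factors 1 fell: Hes1, a Notch target that keeps progenitors undifferentiated, was at 2.42 to 3.02 CPM in Rb1/Trp53/Crebbp and 3.67 to 7.02 CPM in Rb1/Trp53 tumours (-0.82 ± 0.22, adjusted p = 0.0394). It kept its call in 1 of 10 fits with 1 library left out (adjusted p 0.0339 to 0.0957). Among 9 partner factors the smallest adjusted p was that of Nr3c1 (0.49 ± 0.25, adjusted p = 0.251), and among 5 factors of other lineages that of the zinc-finger gene Zbtb20 (0.59 ± 0.33, adjusted p = 0.294). Thus 0 of either list passed, and 0 had an unadjusted p under 0.05, beside 3561 of 14010 genes.

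Within the Calca-high set, 0 of the 4 tested factors passed in edgeR (0 at an unadjusted p under 0.05, and 0 with DESeq2 or limma-voom), although 36.2% of 14797 genes did. Of those genes, 6972 had an unadjusted p under 0.05. Tbx19 and Pax7, with 0 to 3 counts per library, were not tested. Lhx3 was at 7.59, 4.10, 7.22 and 3.84 CPM in Rb1/Trp53/Crebbp T1 to T4 and at 0.870, 1.18 and 6.57 CPM in Rb1/Trp53 T1, T3 and T4 (log2 fold change 1.01 ± 0.69, 95% interval -0.59 to 2.62, adjusted p = 0.284). Pitx1 was at 33.2, 26.1, 44.7 and 4.02 CPM in Rb1/Trp53/Crebbp and at 1.05, 3.72 and 28.8 CPM in Rb1/Trp53 tumours (1.30 ± 1.19, -1.56 to 4.16, adjusted p = 0.428). In both genes Rb1/Trp53 T4 stood with the Rb1/Trp53/Crebbp tumours, well above the other Rb1/Trp53 ones, and for Pitx1 Rb1/Trp53/Crebbp T4 stood with the low ones.

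Sox2 was at 2.53, 8.38, 3.26 and 1.66 CPM in Rb1/Trp53/Crebbp and at 1.69, 1.52 and 30.9 CPM in Rb1/Trp53 tumours (-1.48 ± 1.11, -4.09 to 1.14, adjusted p = 0.333), and its highest value was again Rb1/Trp53 T4. Sox2ot was at most 1.15 CPM in that group. Sox9 was at 21.1, 26.4, 27.7 and 28.3 CPM in Rb1/Trp53/Crebbp and at 44.2, 25.4 and 14.0 CPM in Rb1/Trp53 tumours (-0.09 ± 0.34, -0.88 to 0.69, adjusted p = 0.852). Rb1/Trp53 T1, the highest in Sox9, was also the highest in the follicular genes Tg (16650 CPM) and Pax8 (89.1 CPM) among the 7 libraries. Without it the log2 fold change of Sox9 was 0.41 ± 0.24 (adjusted p = 0.247).

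Rb1/Trp53 T4 decided the values of this set. Without it Lhx3 was higher in Rb1/Trp53/Crebbp tumours by 2.47 ± 0.42 (adjusted p = 0.0051, edgeR), Pitx1 had 3.48 ± 1.16 (adjusted p = 0.0701) and Sox2 turned to 1.32 ± 0.65 (adjusted p = 0.15). That fit left only T1 and T3 in the Rb1/Trp53 group, and it called 5312 genes over all. Rb1/Trp53 T4 had Tbx19 at 0 and anterior hormone and receptor genes that summed to at most 0.552 CPM. Sums of several marker lists differed between the genotypes here. The 8 follicular genes summed to 941 to 1312 CPM in Rb1/Trp53/Crebbp and 2154 to 17020 CPM in Rb1/Trp53 tumours, with 7 of 8 lower. The 8 lung epithelial genes summed to 77.1 to 110 CPM in Rb1/Trp53/Crebbp and 221 to 366 CPM in Rb1/Trp53, with 4 of 8 lower and 1 higher. The 6 endothelial genes summed to 32.6 to 47.4 CPM in Rb1/Trp53/Crebbp and 57.2 to 75.0 CPM in Rb1/Trp53, with 3 of 6 lower. The 10 chondrocyte and fibroblast genes summed to 126 to 399 CPM in Rb1/Trp53/Crebbp and 404 to 643 CPM in Rb1/Trp53. Of these, the cartilage genes Col2a1, Acan, Comp, Matn3 and Col9a1 were each at most 3.11 CPM in Calca-high libraries. Col1a1 stood at 59.2 to 372 CPM and Col1a2 at 44.1 to 249 CPM there, so the sum does not show cartilage. The 6 macrophage genes summed to 41.8 to 86.9 CPM in Rb1/Trp53/Crebbp and 98.5 to 142 CPM in Rb1/Trp53, with 2 of 6 lower. Sums also did not overlap for the 7 C-cell genes (35120 to 68110 CPM in Rb1/Trp53/Crebbp, 118800 to 177800 CPM in Rb1/Trp53; 5 of 7 lower), the 6 neuroendocrine genes (9847 to 17050 CPM in Rb1/Trp53/Crebbp, 22740 to 27330 CPM in Rb1/Trp53; 5 of 6 lower) and the 8 oligodendrocyte genes (68.0 to 84.9 CPM in Rb1/Trp53/Crebbp, 89.6 to 126 CPM in Rb1/Trp53). These counts stand beside 17.1% lower and 19.1% higher over all genes of this set. Ranges that do not overlap between the genotypes were common here: 44.4% of the 14797 tested genes had them. The C-cell list includes Calca, from which the sets were defined, and Chga of the neuroendocrine list was high in both sets. Of these lists, only that of oligodendrocytes had genes at 0 in a whole group, and their part in the values of the factors was not tested.

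**Figure D4:**
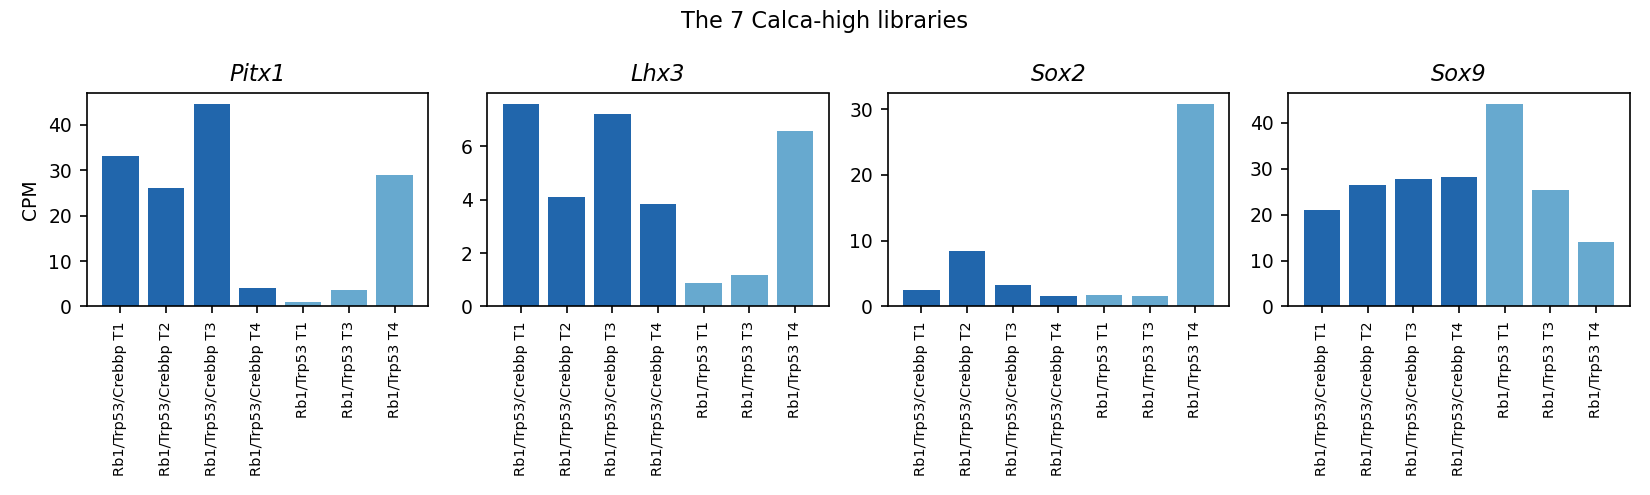
CPM of Pitx1, Lhx3, Sox2 and Sox9 in each of the 7 Calca-high libraries, with Rb1/Trp53/Crebbp bars left of Rb1/Trp53 bars and a separate linear axis per gene. Rb1/Trp53 T4 is far above Rb1/Trp53 T1 and T3 in Pitx1 (28.8 CPM), Lhx3 (6.57 CPM) and Sox2 (30.9 CPM), and lowest in Sox9 (14.0 CPM).

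The counts of listed neighbours called in Calca-high libraries stand beside 19.1% of 14797 genes that rose and 17.1% that fell. Of 7 patterning factors tested there, 1 rose and 3 fell. Lhx2, a LIM-homeodomain factor of the forebrain and posterior pituitary, was at 8.33, 5.93, 9.39 and 5.03 CPM in Rb1/Trp53/Crebbp and at 0.412, 1.02 and 2.16 CPM in Rb1/Trp53 tumours (2.60 ± 0.52, adjusted p = 0.00751). Hes1 (-1.64 ± 0.27), Prrx1 (-1.12 ± 0.31) and Tcf7l1 (-1.36 ± 0.30) fell. Of 9 partner factors 4 rose and 3 fell, led by Nr4a3, a nuclear receptor gene, which was at 0.949 to 2.81 CPM in Rb1/Trp53/Crebbp and at 0.0379 to 0.201 CPM in Rb1/Trp53 tumours (3.99 ± 0.60, adjusted p = 0.00271). The floor was 0.137, 0.114 and 0.15 CPM in Rb1/Trp53 T1, T3 and T4, so the size of the Nr4a3 change rests on values near the floor. Neurod4, a bHLH factor, fell by 0.91 on the log2 scale (adjusted p = 0.0116). Of 4 factors of other lineages, the oestrogen receptor gene Esr1 rose (2.20 ± 0.34, adjusted p = 0.00293). Of 9 effector genes, the CRH receptor gene Crhr1 rose (1.57 ± 0.44, adjusted p = 0.0257), and Pcsk2 (-1.62 ± 0.17), Pam (-1.05 ± 0.16) and Pcsk1 (-0.98 ± 0.16) fell. Prrx1 lost its call without 5 of the 7 libraries in turn and Crhr1 without 4, while Lhx2, Hes1, Tcf7l1, Nr4a3, Neurod4, Esr1, Pcsk2, Pam and Pcsk1 kept it without each.

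The difference of the genotype effect between the sets was tested as an interaction, Pomc-high minus Calca-high. Of the 6 tested factors 0 passed with edgeR (24.7% of 14338 genes did), and 0 had an unadjusted p under 0.05 (5561 of the genes did). DESeq2 called 0 and limma-voom called 1, Lhx3 (-1.77 ± 0.59, adjusted p = 0.039). In edgeR Lhx3 had -1.22 ± 0.61 (adjusted p = 0.150), Pitx1 -1.28 ± 0.99 (0.358) and Sox2 1.66 ± 0.98 (0.230). Without Rb1/Trp53 T4, Lhx3 (-2.64 ± 0.40, adjusted p = 6.25e-04) and Pitx1 (-3.45 ± 0.83, adjusted p = 0.0106) passed, and Sox2 turned to -1.14 ± 0.53 (adjusted p = 0.13). In that fit only T1 and T3 were left of the Calca-high Rb1/Trp53 tumours, and 3137 genes passed over all. For Tbx19 (-1.50 ± 0.92, adjusted p = 0.238) and Pax7 (-0.70 ± 1.39, adjusted p = 0.742) the value rests on the 8 and 6 counts of the Calca-high libraries, and Sox9 had -0.08 ± 0.43 (adjusted p = 0.917). Among the listed factors, Lhx2 (-2.49 ± 0.73, adjusted p = 0.0213), Nr4a3 (-4.25 ± 0.70, adjusted p = 8.28e-04) and Esr1 (-2.13 ± 0.39, adjusted p = 0.00154) differed between the sets, each higher with the Crebbp allele in Calca-high libraries, whereas the difference for Hes1 (0.82 ± 0.33) did not pass (adjusted p = 0.0738). The Nr4a3 value rests on Calca-high Rb1/Trp53 libraries near the floor. Among the effector genes, Pcsk2 (0.83 ± 0.26, adjusted p = 0.0315) and Scg5 (0.82 ± 0.27, adjusted p = 0.0337) passed with the opposite sign, and Rbfox3 (-0.66 ± 0.23, adjusted p = 0.0411) with the same sign. With 1 library left out, these 3 kept the call in 11, 10 and 6 of 17 fits.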

How the data were processed

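RNA was measured in 17 tumours. TRIzol extraction, oligo-dT selection and NEBNext Ultra library preparation were used per the labels' protocols. For each tumour the authors deposited raw counts per gene; the submitters' processing notes name HTSeq 0.6.1, TopHat2 2.0.12, bcl2fastq 1.8.2 and build mm9. The sources used here give neither the annotation, nor the strand setting, nor read filters. The 5 rows that name no gene were left out, so that genes held 64.5% to 78.3% of each table, with totals of 8328297 to 28140755 (median 13456360). No pair of libraries of 1 genotype agreed within sampling noise (64 pairs, chi-square per degree of freedom of at least 8.3).

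Counts were analysed with edgeR 4.0.16 in R 4.3.3: filterByExpr by genotype, TMM scaling, the robust quasi-likelihood F test and Benjamini-Hochberg adjustment over all tested genes, with 0.05 as threshold. Fits were made over all libraries, within each set and with an interaction, with no covariate. CPM is TMM-scaled, with a prior count of 2 on the log2 scale. SE is the log2 fold change over the square root of F, and 95% intervals use the t quantile. Ratios between sets have exact binomial intervals, and the floor is 3 counts; both cover counting error only. The fit was tested on simulated data. DESeq2 1.42.0 and limma 3.58.1 were alternatives, with other scalings and filters, Pomc and Calca left out of the totals, the tumour number as block, the set as term, and each library left out.

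Promoter sequences are from RefSeq (GRCm38.p6), which had entries for 6 of the 8 members, all but Pitx1 and Sox9; exon lengths are from GENCODE M21. Figures used matplotlib 3.10.9. The members and the 15 gene lists (141 entries, all matched) were chosen with earlier results of these data known. Named genes are the 8 members, up to 4 per list with the smallest adjusted p, the 4 of each factor and effector list with the largest difference between the sets, and the 3 most like Tbx19, Pax7, Pitx1 and Lhx3. Genes named outside this rule (markers, Sox2ot, Otx2, Pou1f1 and the rest of the list genes apart between the sets) were chosen after their values were seen. Some genes under the rule are not reported here.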

Additional observations from a re-analysis of the deposited data

Results flagged for a closer look

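Sox9 in Rb1/Trp53/Crebbp T8 stood at 31.4 CPM, far from the other 3 Rb1/Trp53/Crebbp libraries of the Pomc-high set, whose nearest value was 19.2 CPM and lowest 17.02 CPM. The gap was 0.85 of the range of the 4 values. It was the 1 such sample among 16 groups of 4 to 10 libraries examined for the tested factors, where chance alone gives about 1 in 20. The same library held the highest glial sums of the set (1483 CPM for 12 pituicyte and astroglia genes, 829.9 CPM for 8 oligodendrocyte genes), with Gfap at 155 CPM; its part in the Sox9 value was not tested.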

How the results depend on the processing

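Depth limits Lhx4, Hesx1 and, in Calca-high libraries, Tbx19 and Pax7, which lie at the floor. The 5 factors apart between the sets stayed 5 under each scaling, a 2-unit difference, and each library left out.

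Members called were 0 in every fit but these: 1 with DESeq2 in Pomc-high (Pax7), 1 with limma-voom in the interaction (Lhx3), and with 1 library left out 0 to 1 in Calca-high and 0 to 2 in the interaction. Genes called over all tumours (554) were 1397 with DESeq2 and 2575 with the set as a term, and in Pomc-high (1179) 1917 with DESeq2. With 1 library left out they ranged from 285 to 1010 over all tumours, 752 to 1214 in Pomc-high, 3588 to 5312 in Calca-high and 2546 to 3852 in the interaction. Over all tumours the count moved by over 1.5 times without Rb1/Trp53 T7 (313) or T8 (326), or, of Rb1/Trp53/Crebbp, T5 (1010), T4 (285), T3 (292), T2 (332) or T1 (309); in Pomc-high it did so without Rb1/Trp53/Crebbp T7 (752).

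Signs turned, none past the threshold, for Pitx1 over all tumours (0.19 with limma-voom, 0.077 with the block, 0.50 with the set as a term), Lhx3 (0.19) and Tbx19 (0.10) with the set as a term, Sox9 in Calca-high (0.069 with limma-voom, 0.046 with the block), Pitx1 in Pomc-high (-0.074 with the block) and Pax7 in the interaction (2.12 with the block). The cause was not tested. Leave-one-out ranges that cross 0 were -0.19 to 0.031 for Sox9 over all tumours, -0.10 to 0.14 for Pitx1 in Pomc-high, -2.16 to 1.32 for Sox2 and -0.41 to 0.41 for Sox9 in Calca-high, and, in the interaction, -1.45 to 2.10 for Pax7, -1.14 to 2.40 for Sox2 and -0.53 to 0.24 for Sox9.

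Some tumour numbers are shared by the genotypes. Deviations of same-numbered libraries of the same set from their group means correlated at -0.161 to 0.194. With so few pairs and no values for unmatched pairs beside them, this check cannot exclude a pairing. With the number as a replicate block, 442 genes were called over all tumours, 358 in Pomc-high, 2732 in Calca-high and 1312 in the interaction, from fewer libraries; Pax7 in Pomc-high had -0.38 (adjusted p = 0.131).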

Other observations

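Genes that mark pituitary stem cells beside Sox2 and Sox9 were read as a list of 16, of which 14 passed the filter over all libraries. None stood apart and higher in Pomc-high tumours and 6 stood apart and lower, beside 6.66% of all tested genes. The epithelial cadherin gene Cdh1 was at 0.939 to 6.77 CPM in Pomc-high and at 56.6 to 296 CPM in Calca-high libraries, and Mia1 at 2.01 to 12.9 CPM in Pomc-high and 183 to 454 CPM in Calca-high. Within Pomc-high libraries 3 of 12 tested stem cell genes fell in Rb1/Trp53/Crebbp tumours, beside 5.26% of all genes: the tetraspanin gene Cd9 (-0.80 ± 0.14, adjusted p = 0.00536), the keratin gene Krt18 (-0.59 ± 0.14, adjusted p = 0.0241) and the zinc-finger factor gene Klf4 (-1.001 ± 0.27, adjusted p = 0.0382), all with edgeR. Cd9 kept its call with each library left out. Krt18 lost it without Rb1/Trp53 T7 and without Rb1/Trp53/Crebbp T7 or T8, and Klf4 lost it in 7 of 10. Within Calca-high libraries, where 17.1% of all genes fell and 19.1% rose, 5 of 16 fell, among them Cdh1 (-1.89 ± 0.15), the annexin gene Anxa1 (-1.89 ± 0.18), Cyp2f2 (-3.60 ± 0.40) and the receptor gene Gfra3 (-4.82 ± 0.57), and 1 rose, Klf4 (0.94 ± 0.25, adjusted p = 0.0223). The genotype effect on Klf4 differed between the sets (-1.93 ± 0.39, adjusted p = 0.0026).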
